A study of Mus musculus with 7 samples.

Results

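The genes described here are 31 megakaryocyte and platelet genes, chosen by name from the surface glycoproteins, granule proteins, receptors, cytoskeletal proteins and lipid enzymes of platelets and their parent cells. They were looked up among the 39017 genes of the count files by Ensembl identifier. All 31 were found, and all 31 passed the filter on low counts that left 15800 genes for testing. The rule that names them uses no measured value.

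RNA was sequenced from 7 fetal livers of C57BL/6 mouse embryos at stage E12.5, each made into a suspension of single cells before extraction. The 2 TAF10KO embryos carried EpoCre, a Cre recombinase driven by the erythropoietin receptor gene and so active in erythroid cells, with both Taf10 alleles flanked by lox sites in the sample titles but with a lox and a knockout allele in the series text. The 3 TAF10HET embryos also carried EpoCre, replicate 1 with lox over wild type and replicates 2 and 3 with wild type over ko. The 2 WT embryos carried lox alleles on both sides and no Cre, so an effect of Cre and one of Taf10 cannot be told apart in comparisons with WT. Taf10 encodes a subunit of the general transcription factor TFIID and of the coactivator SAGA.

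The titles hold a code that looks like a date. The second date code marks 4 libraries, and the first marks the other 3, which are replicate 1 of each genotype. The alleles of TAF10HET differ with the code, so the difference between them and an effect of the code cannot be told apart. Reads assigned to genes numbered 18008391 to 43401474 per library. The coefficient of variation between livers of a group was 33.9% with genotype alone in the model and 13.4% with the date code added, and the code was therefore a term in the reported fits. Levels are given as CPM, read counts scaled to a common library total, with the replicates of a group in the order of their numbers. Taf10 itself had 37.8 and 43.8 CPM in TAF10KO, against 78.0, 63.6 and 63.0 CPM in TAF10HET and 71.9 and 96.4 CPM in WT. Its log2 difference between TAF10KO and WT was -1.04 (SE 0.168, edgeR adjusted p = 0.0542). Counts of a whole liver include cells that never expressed the Cre.

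Megakaryocytes are the large polyploid cells of blood formation that shed platelets, and the fetal liver is one of their sites of development. They share a bipotent progenitor and several transcription factors, GATA1 among them, with the erythroid lineage. Their maturation under thrombopoietin fills the cell with granules and builds the membranes and microtubules from which platelets form. The glycoprotein complexes on the platelet surface then bind von Willebrand factor, collagen and fibrinogen at a wound, and granule release and thromboxane recruit further platelets.

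Megakaryocyte genes are classically described as sharing sites for GATA and ETS factors in short promoters. RefSeq windows of GRCm38.p6, from 250 bases before to 50 after a gene's start, were at hand for 24 of the 31 genes. They were searched on both strands for exact letters, and no motif overlaps another in the windows printed here. The letters AGGAAG, as bound by ETS factors, were found for 16 of the 24 genes (66.7%), against 38.4% of 27025 genes with a window. For the letters AGATAA, as bound by GATA factors, the count was 5 of 24 (20.8%), against 12.7%. The letters TATAAA, as in a TATA box, were found on either strand and anywhere in the window for 3 of 24, against 15.7% of all genes. Letters of both the GATA and the ETS motif stood together in 1 window for Gp5, Pf4 and F2rl2, 3 of the 24, against 4.6% of all genes. A match is a description of letters and not a measured binding site. Windows of 4 of the genes are shown, with the motif letters in capitals. They are Itga2b at chr11:102469834-102470133 on the minus strand, Gp9 at chr6:87777820-87778119 and Pf4 at chr5:90772185-90772484 on the plus strand, and Mmrn1 at chr6:60944067-60944366 on the plus strand.
Itga2b: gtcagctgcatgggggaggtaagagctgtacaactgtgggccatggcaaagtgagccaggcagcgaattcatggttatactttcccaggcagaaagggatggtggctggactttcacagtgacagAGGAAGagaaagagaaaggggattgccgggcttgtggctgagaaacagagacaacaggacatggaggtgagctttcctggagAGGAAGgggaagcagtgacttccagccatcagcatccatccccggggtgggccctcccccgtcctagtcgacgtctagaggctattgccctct
Gp9: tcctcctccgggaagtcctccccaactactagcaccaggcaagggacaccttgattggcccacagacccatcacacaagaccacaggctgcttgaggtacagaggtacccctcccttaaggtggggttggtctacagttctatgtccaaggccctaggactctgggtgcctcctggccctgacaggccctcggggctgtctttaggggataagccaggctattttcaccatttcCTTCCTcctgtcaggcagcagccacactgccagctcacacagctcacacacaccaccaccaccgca
Pf4: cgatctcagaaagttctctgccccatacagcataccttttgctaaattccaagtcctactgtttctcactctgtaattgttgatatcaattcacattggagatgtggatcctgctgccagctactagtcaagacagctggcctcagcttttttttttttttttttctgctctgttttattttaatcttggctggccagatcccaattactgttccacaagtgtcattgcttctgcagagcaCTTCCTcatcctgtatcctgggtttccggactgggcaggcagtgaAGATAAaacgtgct
Mmrn1: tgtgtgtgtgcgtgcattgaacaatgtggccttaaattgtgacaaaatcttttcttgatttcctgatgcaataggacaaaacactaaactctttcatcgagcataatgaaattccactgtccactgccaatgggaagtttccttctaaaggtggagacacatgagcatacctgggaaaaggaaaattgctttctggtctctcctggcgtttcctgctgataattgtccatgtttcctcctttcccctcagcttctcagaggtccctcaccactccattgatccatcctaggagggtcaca
The ETS letters of Itga2b begin 125 and 43 bases before the RefSeq start. Those of Gp9 end 11 bases and those of Pf4 end 4 bases before theirs, and the GATA letters of Pf4 begin 36 bases after it. In GENCODE Itga2b begins further upstream, at chr11:102470122 on the minus strand. Both of its ETS matches lie after that start, and the window holds few letters before it. The Mmrn1 window holds none of the 3 motifs. In GENCODE this gene begins further upstream, at chr6:60924976, so the letters around that start were not searched.

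Every one of the 31 genes had reads in this tissue, over a wide range of levels. Per kilobase of exon, averaged over the 7 livers, the chemokine genes Pf4 and Ppbp led with 197 and 118 CPM per kb. Thbs1 followed with 55.9, the platelet tubulin gene Tubb1 with 38.7 and Plek with 37.2 CPM per kb. The lowest were Gp6 with 0.962, P2ry12 with 0.873 and Selp with 0.161 CPM per kb. Summed over the 31 genes, the level was 2040 and 2333 CPM in TAF10KO, 1526, 1770 and 1801 CPM in TAF10HET, and 1798 and 1687 CPM in WT. Both TAF10KO livers therefore lay above the other 5. The sum follows the genes of highest level. Thbs1 had 424 CPM in TAF10KO replicate 1 and 286 CPM in WT replicate 1, and Mmrn1 had 47.5 and 0 CPM. Ppbp went the other way, with 120 and 163 CPM. Within the first date code the median log2 difference of TAF10KO from WT was 0.01 over the 31 genes. A narrower list of 14 was picked by name as little used outside the lineage, which was not tested here. It held Ppbp, Itga2b, Gp1ba, Gp1bb, Gp5, Gp6, Gp9, Treml1, Tubb1, F2rl2, Rab27b, Nbeal2, P2ry12 and Alox12. Its sums were 682 and 810 CPM in TAF10KO, 538.5, 634.5 and 638 CPM in TAF10HET, and 664 and 606 CPM in WT. Both TAF10KO livers again lay above the rest, the first of them by little. In a bulk liver, a larger number of cells of a type and more RNA per cell cannot be told apart.

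**Figure D1:**
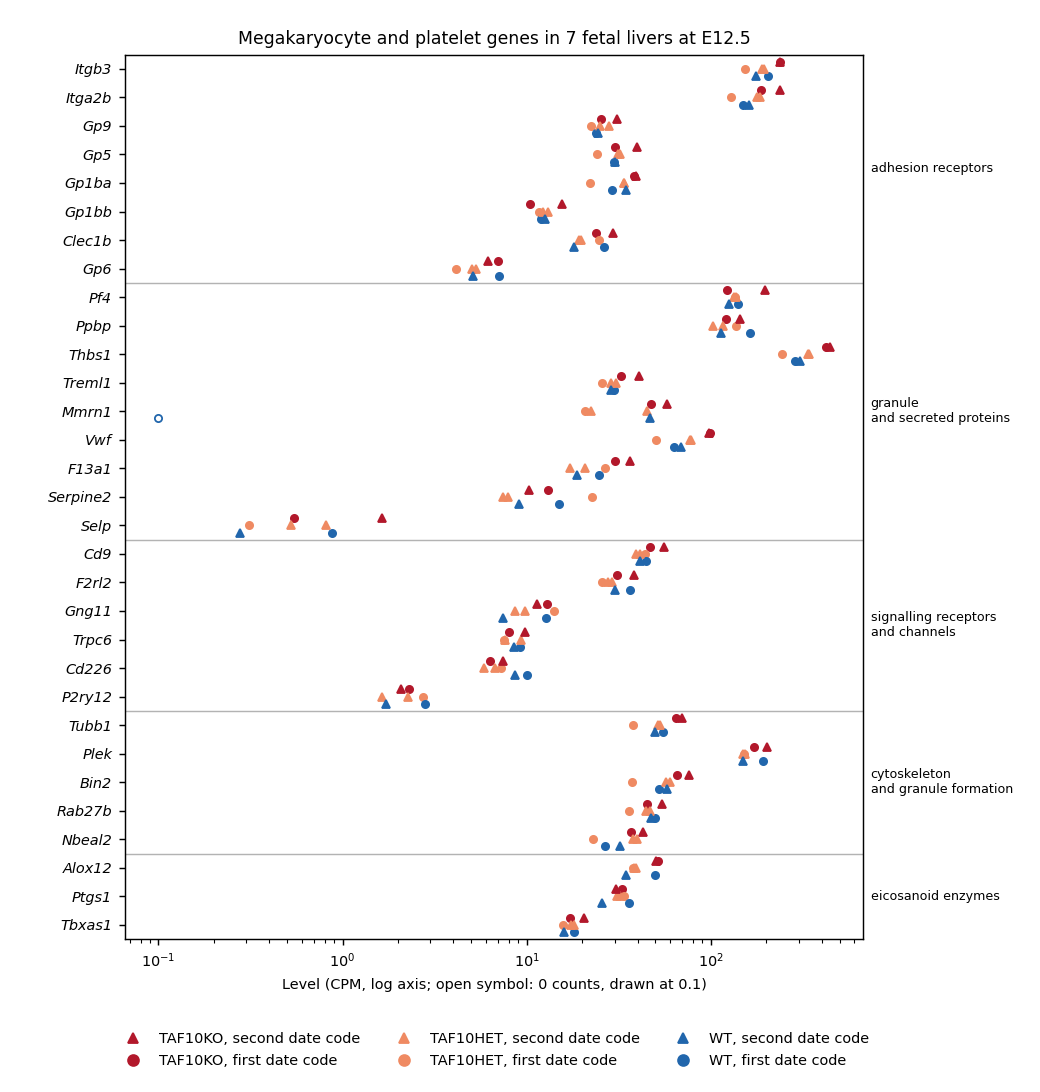
Level of each of the 31 genes in each liver, in CPM on a log axis, grouped by role. Red symbols are TAF10KO, orange TAF10HET and blue WT, with triangles for the second date code and circles for the first. The open circle is Mmrn1 in WT replicate 1, with 0 counts, and both TAF10KO symbols lie to the right of the other 5 for 12 genes, among them Thbs1 and Vwf.

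Against WT, most of the genes had a higher fitted level in TAF10KO livers, but no single gene passed the test. The fitted log2 difference was positive for 27 of the 31 genes and negative for 4, with a median of 0.25 against 0.03 over all genes tested. In edgeR's quasi-likelihood test, 0 of 31 had an adjusted p under 0.05, where 0.608% of all genes passed. Unadjusted p was under 0.05 for 10 of the 31 and for 17.9% of all genes. On both date codes, 16 of the 31 (51.6%) were higher in TAF10KO, against 34.3% of all genes, and 1 of 31 was lower on both, against 30.3%. Both TAF10KO livers lay above the other 5 for 12 of 31 genes (38.7%), against 7.48% of all genes. The split of 27 and 4 was the same with median-of-ratios and upper-quartile factors, but it was 19 and 12 without WT replicate 2 and 17 and 14 without TAF10KO replicate 2. The median rested on the second date code: it was 0.40 within the second code and 0.01 within the first, and 0.051 without WT replicate 2 and 0.028 without TAF10KO replicate 2. The number of genes passing was 3 with DESeq2 (4.41% of all genes), 4 with only TAF10KO and WT in the fit (3.52%) and 9 with no filter on low counts (5.09%). It was 7 without TAF10HET replicate 1, where 5.65% of all genes passed, 5 without TAF10KO replicate 1 (7.9%) and 2 without TAF10KO replicate 2 (3.25%).

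The adhesion receptors, which hold platelets to a vessel wall and to each other, were all fitted higher in TAF10KO than in WT, with a median log2 difference of 0.25 over 8 genes. Itga2b (ENSMUSG00000034664) encodes integrin alpha-IIb, a subunit of the fibrinogen receptor and an early mark of the lineage. It stood at 187 and 238 CPM in TAF10KO, at 129, 185 and 178 CPM in TAF10HET, and at 149 and 162 CPM in WT. Both TAF10KO livers were above the other 5, the first of them by little. Between TAF10KO and WT the log2 difference was 0.44 (SE 0.106, edgeR adjusted p = 0.113), made of 0.56 on the second date code and 0.32 on the first. It passed with DESeq2 (adjusted p = 0.0174), with only the groups compared (0.0385), without TAF10HET replicate 1 (0.0222) and without TAF10KO replicate 1 (0.0479).

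Itgb3 (ENSMUSG00000020689), the beta-3 subunit that pairs with alpha-IIb and, on other cells, with alpha-V, had 237 and 237 CPM in TAF10KO, 153, 189.6 and 196 CPM in TAF10HET, and 203 and 176 CPM in WT. The groups TAF10KO and WT did not overlap, and the log2 difference was 0.32 (SE 0.129, edgeR adjusted p = 0.262). The 4 genes of the von Willebrand factor receptor stood at log2 0.06 to 0.29. Gp1ba, its ligand-binding chain, had 38.2 and 39.1 CPM in TAF10KO, 22.1, 33.8 and 33.7 CPM in TAF10HET, and 29.1 and 34.4 CPM in WT, again with both TAF10KO livers on top. Its log2 difference from WT was 0.29 (edgeR adjusted p = 0.327). Gp5 and Gp9, further chains of that complex, stood at log2 0.20 and 0.22, with 0.39 and 0.34 on the second date code and 0.03 and 0.09 on the first. For Gp9 the livers lay close together, at 25.3 and 30.9 CPM in TAF10KO, 22.5, 28.0 and 24.9 CPM in TAF10HET, and 23.7 and 24.4 CPM in WT. Gp1bb, the chain linked to Gp1ba, stood at 0.06. In GENCODE 91.1% of its exon bases are shared with Sept5 on the same strand. Reads ambiguous between the genes may therefore be missing from its count, but the annotation used for counting was not given.

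Gp6, the collagen receptor, had 6.97 and 6.13 CPM in TAF10KO, 4.13, 5.02 and 5.28 CPM in TAF10HET, and 7.10 and 5.10 CPM in WT. Its TAF10KO values lay between those of the WT livers, with a log2 difference of 0.10 (edgeR adjusted p = 0.837). Clec1b encodes CLEC-2, the receptor for podoplanin. It had 23.9 and 29.4 CPM in TAF10KO, 24.7, 19.2 and 19.7 CPM in TAF10HET, and 26.4 and 18.1 CPM in WT. Only on the second date code was its TAF10KO liver the highest, and the fitted log2 difference of 0.29 joins 0.70 on the second code and -0.14 on the first.

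The granule and secreted proteins had a median fitted log2 difference of TAF10KO from WT of 0.56 over 9 genes, 8 of them positive. Within the second date code their median was 0.51 and within the first 0.13. The fitted median includes Mmrn1 at 1.96, which rests on a library with 0 reads, and Selp at 0.70, which rests on few reads. Thbs1 (ENSMUSG00000040152), thrombospondin-1 of the alpha granule, had 424 and 442 CPM in TAF10KO, 244, 342 and 337 CPM in TAF10HET, and 286 and 303 CPM in WT. Both TAF10KO livers were above the other 5, and the log2 difference from WT was 0.56 (SE 0.123, edgeR adjusted p = 0.0939), the smallest adjusted p of the 31 genes. It was 0.54 on the second date code and 0.57 on the first. Vwf (ENSMUSG00000001930), von Willebrand factor, had 98.3 and 97.8 CPM in TAF10KO, 50.2, 76.7 and 78.2 CPM in TAF10HET, and 63.1 and 68.4 CPM in WT. Its TAF10KO livers were nearly equal and above the other 5, with a log2 difference of 0.58 (SE 0.15, edgeR adjusted p = 0.13), made of 0.51 on the second date code and 0.64 on the first. With DESeq2 the adjusted p was 0.00167 for Thbs1 and 0.0186 for Vwf. Without TAF10HET replicate 1 edgeR gave an adjusted p of 0.00588 for Thbs1 and 0.00447 for Vwf. Without TAF10KO replicate 2 the log2 difference was 0.64 for Thbs1 and 0.74 for Vwf. Neither gene passed in edgeR without TAF10HET replicate 2 or 3, with the date code left out, or with other scaling factors. Endothelial cells make both proteins too.

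F13a1, the A subunit of the fibrin-linking factor XIII, which macrophages also make, had 30.1 and 36.3 CPM in TAF10KO, 26.7, 20.7 and 17.2 CPM in TAF10HET, and 24.8 and 18.6 CPM in WT. The TAF10KO livers were the highest, and the log2 difference from WT was 0.64 (SE 0.197, edgeR adjusted p = 0.176), with 0.96 on the second date code and 0.28 on the first. Treml1, a receptor stored in alpha granules, had 32.4 and 40.6 CPM in TAF10KO, 25.5, 28.7 and 30.5 CPM in TAF10HET, and 29.6 and 28.6 CPM in WT, and stood at log2 0.32 (edgeR adjusted p = 0.218).

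The chemokine genes behaved otherwise. Pf4 (ENSMUSG00000029373), platelet factor 4, had 123 and 197 CPM in TAF10KO, 134.5, 138 and 133 CPM in TAF10HET, and 141 and 125 CPM in WT. The TAF10KO livers were the lowest and the highest of the 7, and the log2 difference from WT was 0.24 (SE 0.187, edgeR adjusted p = 0.535), made of 0.65 on the second date code and -0.20 on the first. Ppbp (ENSMUSG00000029372), pro-platelet basic protein and its neighbour on chromosome 5, had 120.2 and 143 CPM in TAF10KO, 137, 103 and 117 CPM in TAF10HET, and 163 and 114 CPM in WT. WT replicate 1 was the highest, and the fitted difference of -0.05 (SE 0.175, edgeR adjusted p = 0.914) joins 0.33 on the second date code and -0.44 on the first. Serpine2, protease nexin-1, stood at log2 0.03, with 13.1 and 10.3 CPM in TAF10KO, 22.5, 7.88 and 7.44 CPM in TAF10HET, and 15.0 and 9.09 CPM in WT, lower on the second date code in each group. Selp, P-selectin, had few reads, 20 and 71 in TAF10KO, 6, 21 and 9 in TAF10HET, and 24 and 6 in WT, and its log2 difference of 0.70 had an SE of 0.703.

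The signalling receptors and channels had a median log2 difference of TAF10KO from WT of 0.02 over 6 genes, with 3 positive and 3 negative. Cd9, a tetraspanin of the platelet surface, had 46.7 and 55.7 CPM in TAF10KO, 43.6, 41.3 and 39.1 CPM in TAF10HET, and 44.7 and 41.4 CPM in WT. The first TAF10KO liver lay close to WT replicate 1, and the log2 difference was 0.25 (SE 0.112, edgeR adjusted p = 0.295). F2rl2, the thrombin receptor PAR3, had 30.99 and 38.2 CPM in TAF10KO, 25.8, 29.2 and 27.7 CPM in TAF10HET, and 36.4 and 30.1 CPM in WT, with TAF10KO and WT interleaved and a log2 difference of 0.05 (edgeR adjusted p = 0.88). Cd226 (ENSMUSG00000034028), an adhesion receptor of platelets and lymphocytes, went the other way. It had 6.32 and 7.44 CPM in TAF10KO, 7.29, 5.87 and 6.74 CPM in TAF10HET, and 10.01 and 8.67 CPM in WT. Both WT livers were above the 5 livers with EpoCre, and the log2 difference was -0.44 for TAF10KO against WT (SE 0.171, edgeR adjusted p = 0.248) and -0.49 for TAF10HET against WT (SE 0.16, edgeR adjusted p = 0.999). It was the only gene of the 31 that was lower in TAF10KO than in WT on both date codes. Gng11, a G-protein gamma subunit, stood at log2 0.31, and P2ry12, the ADP receptor targeted by clopidogrel, at -0.02 with 2.31 and 2.07 CPM in TAF10KO, 2.74, 2.28 and 1.64 CPM in TAF10HET, and 2.80 and 1.72 CPM in WT. Trpc6, a cation channel, stood at -0.01.

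Genes of the cytoskeleton and of granule formation were all fitted higher in TAF10KO, with a median log2 difference from WT of 0.36 over 5 genes. Tubb1 (ENSMUSG00000016255), the beta-1 tubulin of the platelet's marginal band, had 64.5 and 69.8 CPM in TAF10KO, 37.7, 51.4 and 53.3 CPM in TAF10HET, and 54.7 and 49.5 CPM in WT. Both TAF10KO livers lay above the rest, and the log2 difference was 0.36 (SE 0.139, edgeR adjusted p = 0.248). Bin2, a membrane-bending BAR-domain protein, had 65.7 and 76.4 CPM in TAF10KO, 37.3, 57.4 and 60.0 CPM in TAF10HET, and 52.5 and 57.8 CPM in WT, also with no overlap, and stood at 0.36 (SE 0.129, edgeR adjusted p = 0.219). Nbeal2 (ENSMUSG00000056724), the protein lost in grey platelet syndrome and needed for alpha granules, had 37.1 and 42.8 CPM in TAF10KO, 22.8, 39.9 and 37.9 CPM in TAF10HET, and 26.5 and 31.9 CPM in WT. TAF10KO and WT did not overlap, but TAF10HET spanned WT and reached into TAF10KO. Its log2 difference from WT was 0.45 (SE 0.147, edgeR adjusted p = 0.185), made of 0.42 on the second date code and 0.48 on the first. Plek, the protein kinase C substrate pleckstrin, had 171 and 202 CPM in TAF10KO, 152, 149 and 154 CPM in TAF10HET, and 191 and 150.1 CPM in WT. WT replicate 1 lay between the TAF10KO livers, and the log2 difference was 0.13 (SE 0.131, edgeR adjusted p = 0.633). Rab27b, a GTPase of granule secretion, stood at 0.02.

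The eicosanoid enzymes had a median log2 difference from WT of 0.15 over 3 genes. Alox12 (ENSMUSG00000000320), platelet 12-lipoxygenase, had 51.7 and 50.3 CPM in TAF10KO, 37.8, 39.2 and 38.3 CPM in TAF10HET, and 49.6 and 34.8 CPM in WT. The TAF10KO and TAF10HET livers formed separate tight groups, while WT replicate 1 lay near TAF10KO and WT replicate 2 below TAF10HET. The log2 difference from WT was 0.28 (SE 0.134, edgeR adjusted p = 0.322). Ptgs1, cyclooxygenase-1, had 33.0 and 30.4 CPM in TAF10KO, 33.6, 30.9 and 32.1 CPM in TAF10HET, and 36.0 and 25.8 CPM in WT, where the widest spread was inside WT. It stood at 0.05, and Tbxas1, thromboxane synthase, at 0.15.

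The difference between the single TAF10KO and WT livers was larger on the second date code than on the first for 26 of the 31 genes (83.9%), against 50.1% of all genes. A test of this interaction in edgeR called 4 of the 31 genes as larger on the second code, where 0.443% of all genes were, and 0 as smaller on it, where 0.703% were. The 4 genes were Pf4, Ppbp, Plek and Clec1b. In log2 units the interaction was 0.85 for Pf4 (edgeR adjusted p = 0.00836), 0.77 for Ppbp (0.0393), 0.58 for Plek (0.034) and 0.84 for Clec1b (0.0445). For each of these the TAF10KO liver lay above WT on the second code and below it on the first. Each combination of genotype and code, apart from TAF10HET on the second, is 1 embryo. The 1 residual degree of freedom of the test is the spread between the pair of TAF10HET livers on the second code, and the TAF10KO and WT livers are assumed to vary like them. The calls therefore compare those embryos, and an odd liver and an effect of the code cannot be told apart. Thbs1, Vwf, Nbeal2 and Bin2 had interactions between -0.12 and 0.08.

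**Figure D2:**
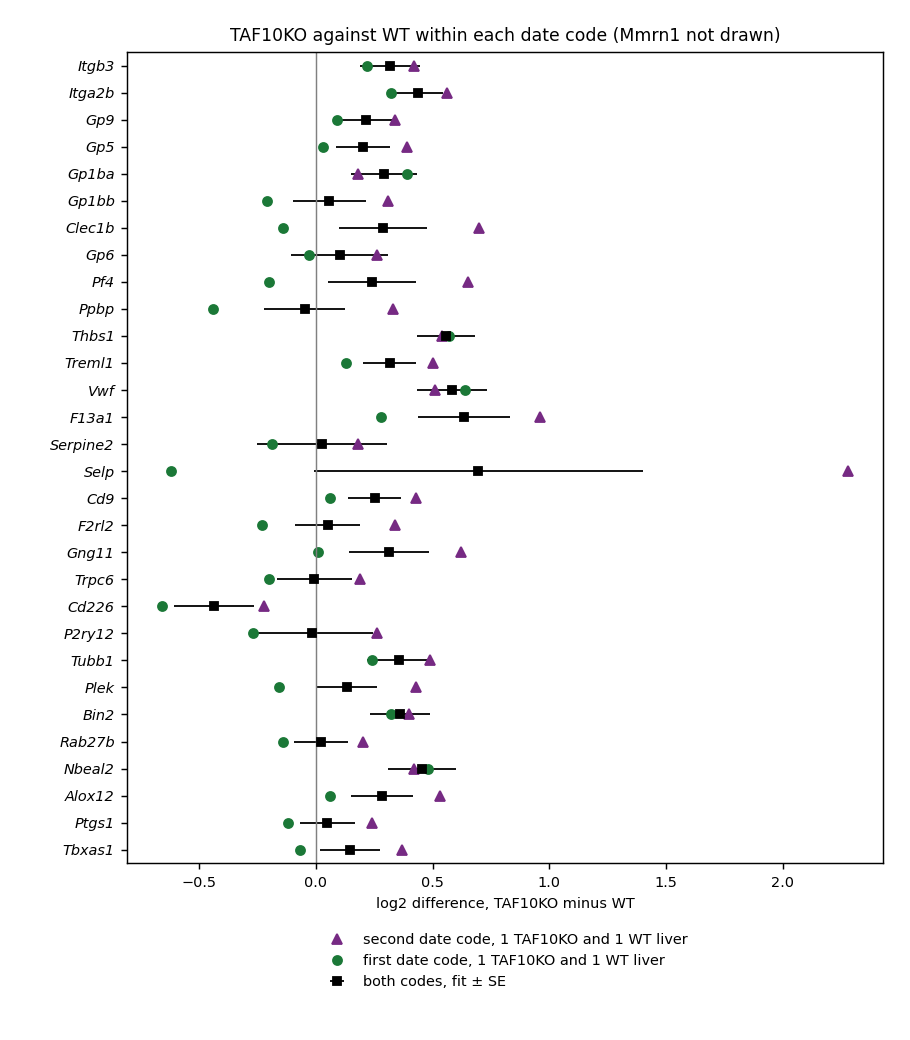
Log2 difference of TAF10KO from WT for 30 genes, grouped by role in the order of the level plot. Purple triangles compare the single TAF10KO and WT livers of the second date code, green circles those of the first, and black squares give the fit over both with its SE. Triangles lie to the right of circles for most genes, and for Thbs1, Vwf and Nbeal2 the symbols nearly coincide.

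TAF10HET livers also carried EpoCre, and against them the 31 genes in TAF10KO had a median log2 difference of 0.32 against 0.00 over all genes tested. The fitted difference was positive for 28 of 31 genes and negative for 3, and without TAF10KO replicate 2 the split was 19 and 12. Again 0 of 31 passed in edgeR, where 1.61% of all genes did, while 16 of 31 and 17.1% of all genes had an unadjusted p under 0.05. On both date codes 22 of 31 (71%) were higher in TAF10KO, against 27.1% of all genes, and 1 of 31 was lower, against 24.6%. The smallest adjusted p was that of Thbs1 (log2 0.55, SE 0.113, edgeR adjusted p = 0.07), followed by Bin2 (0.54, 0.0809), Itga2b (0.44, 0.0829), Vwf (0.59, 0.0949) and Tubb1 (0.54, 0.0977). Genes passing numbered 6 with DESeq2 (4.84% of all genes) and 16 with no filter (5.45%). They numbered 10 without TAF10KO replicate 1 (7.41% of all genes), 3 without TAF10HET replicate 1 (3.1%) and 3 without TAF10KO replicate 2 (3.95%), where the median was 0.105. This comparison and that with WT share the 2 TAF10KO livers.

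Between TAF10HET and WT livers, the direction for these genes depended on which WT liver was in the fit. The median log2 difference of TAF10HET from WT was -0.06 against 0.01 over all genes, with 10 positive and 21 negative. It was 0.07 within the second date code and -0.23 within the first. In edgeR 0 of the 31 passed, where 0.00633% of all genes did, and likewise 0 with DESeq2, while 1 of 31, Cd226, and 3.35% of all genes had an unadjusted p under 0.05. On both date codes 2 of 31 were higher in TAF10HET, against 26.5% of all genes, and 7 of 31 were lower, against 24.8%. Without WT replicate 1 the median turned to 0.077, with 22 positive and 9 negative, and without WT replicate 2 it was -0.252, with 3 positive and 28 negative.

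Mmrn1 (ENSMUSG00000054641, chr6:60924976-60989378), multimerin-1, a large alpha-granule protein that binds factor V, gave the widest spread of the 31 genes. It had 1750 and 2521 reads in TAF10KO, 400, 578 and 767 reads in TAF10HET, and 0 and 1003 reads in WT. In CPM these were 47.5 and 57.9 in TAF10KO, 20.7, 22.3 and 45.0 in TAF10HET, and 0 and 46.5 in WT. WT replicate 1 had no read of it, TAF10HET replicates 1 and 2 formed a lower pair, and the other 4 livers were at 45.0 CPM or above. For WT replicate 1, a count of 0 allows up to 3 reads or 0.109 CPM, and WT replicate 2 was at least 426-fold higher than that. The fitted log2 difference of TAF10KO from WT of 1.96 (SE 1.87, edgeR adjusted p = 0.65) rests on that 0 and is no estimate of size. Among the 31 genes no other had 0 reads in any library. Without Mmrn1 the median log2 difference of the remaining genes was 0.246 for TAF10KO against WT, -0.069 for TAF10HET against WT and 0.313 for TAF10KO against TAF10HET.

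A smaller share of these genes than of all genes passed between the date codes, a difference that was not tested and that depended on the setting. Between the second and the first code 6 of 31 genes (19.4%) passed in edgeR, against 41.4% of all genes, of which 4 rose, against 18.7%, and 2 fell, against 22.7%. Itga2b (log2 0.33, edgeR adjusted p = 0.0166), Nbeal2 (0.44, 0.0216), Bin2 (0.36, 0.0279) and Gp5 (0.28, 0.0436) rose. Gng11, with 11.4 CPM in TAF10KO, 8.65 and 9.85 CPM in TAF10HET and 7.42 CPM in WT on the second code, and with 12.8, 14.0 and 12.8 CPM in TAF10KO, TAF10HET and WT on the first, fell by 0.52 log2 units (edgeR adjusted p = 0.0184). Serpine2, which fibroblasts and other mesenchymal cells also make, fell by 0.94 (edgeR adjusted p = 0.0122). Within TAF10KO, TAF10HET and WT its difference was -0.34, -1.55 and -0.72. The second code was higher within all 3 genotypes for 9 of 31 genes, against 32.1% of all genes, and lower within all 3 for 4 of 31, against 33.3%. Without TAF10KO replicate 1, 12 of 31 (38.7%) passed against 45% of all genes, and without TAF10KO replicate 2, 12 against 44.6%. With no filter on low counts 11 of 31 (35.5%) passed, against 26.6% of all genes. The number was 2 without TAF10HET replicate 3 (29% of all genes), 1 without TAF10HET replicate 1 (33%) and 1 with only TAF10KO and WT in the fit (27.5%), where the gene was Serpine2. The code's difference in TAF10HET includes the difference in alleles.

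Around the 31 genes, the regulators and partners of the pathway had 1 gene called higher and 1 called lower by genotype in the reported edgeR fit. Both calls were between TAF10KO and TAF10HET, in the list of cytoskeleton and granule genes, and more genes passed with DESeq2. Of 22 transcription factors and cytokine pathway genes of the lineage, 0 passed in edgeR in any of the 3 genotype comparisons, and their median log2 difference of TAF10KO from WT was 0.13. Between TAF10KO and WT 8 of them had an unadjusted p under 0.05, against 17.9% of all genes, and 1 passed with DESeq2, against 4.41%. Gata1, the factor shared with the erythroid lineage, had 186 and 254 CPM in TAF10KO, 190.5, 301 and 279 CPM in TAF10HET, and 192.5 and 291 CPM in WT, higher on the second date code in each group, with a log2 difference of -0.12 (edgeR adjusted p = 0.487). Fli1, the ETS factor of megakaryocytes, had 24.2 and 24.9 CPM in TAF10KO, 21.8, 20.5 and 18.9 CPM in TAF10HET, and 23.0 and 19.4 CPM in WT. Its TAF10KO livers were the highest, with a log2 difference from WT of 0.22 (edgeR adjusted p = 0.343). Nfe2, needed for platelet release, had 195 and 227 CPM in TAF10KO, 212, 325 and 265 CPM in TAF10HET, and 209 and 260 CPM in WT. Its TAF10KO liver was the lowest of each date code, and the log2 difference from WT was -0.15 (edgeR adjusted p = 0.547). Thpo, the thrombopoietin made by hepatocytes, had 3.56 and 2.69 CPM in TAF10KO, 2.69, 2.24 and 2.64 CPM in TAF10HET, and 3.50 and 2.83 CPM in WT, with the WT livers between the TAF10KO livers and a log2 difference of -0.02 (edgeR adjusted p = 0.965). Between date codes, 13 of these 22 genes rose, against 18.7% of all genes, and 4 fell, against 22.7%, with Gata1 at 0.56 (edgeR adjusted p = 0.00101).

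Of 28 further receptors and signalling proteins of platelets, 0 passed by genotype in edgeR. Between TAF10KO and WT 8 had an unadjusted p under 0.05, against 17.9% of all genes, and 1 passed with DESeq2, against 4.41%. All 28 were fitted higher in TAF10KO than in WT, as they were with median-of-ratios and upper-quartile factors, against 8570 of the 15800 genes tested. The count was 21 of 28 without WT replicate 2 and 22 without TAF10KO replicate 2, and their median was 0.20. Esam, with the largest difference of the 28 at 0.63, is also among the endothelial markers. The part of endothelial cells in this list was not tested. Of 18 genes of the platelet cytoskeleton and granules, 0 passed between TAF10KO and WT in edgeR. There 9 had an unadjusted p under 0.05, against the same 17.9%, and 5 passed with DESeq2, against 4.41%. Between TAF10KO and TAF10HET 1 rose and 1 fell, where 1.61% of all genes passed. Stxbp2, the Munc18 protein of granule fusion, had 94.2 and 119.7 CPM in TAF10KO, 67.4, 90.2 and 85.9 CPM in TAF10HET, and 73.0 and 86.8 CPM in WT. Its TAF10KO livers were the highest, and it rose against TAF10HET by 0.45 (SE 0.0704, edgeR adjusted p = 0.0293). Vamp8, the SNARE of granule release, had 99.0 and 118 CPM in TAF10KO, 151, 167 and 156 CPM in TAF10HET, and 138.5 and 154 CPM in WT. Its TAF10KO livers were the lowest, and against TAF10HET it fell by 0.52 (SE 0.0778, edgeR adjusted p = 0.0263). Both genes are used by other secretory cells as well.

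Of the marker lists of other liver cells, the endothelial one had 2 genes passing in edgeR between TAF10KO and WT and the others had 0, with medians of either sign. The 12 endothelial markers summed to 602 and 320.5 CPM in TAF10KO, 424, 273.5 and 241.5 CPM in TAF10HET, and 452 and 233 CPM in WT, so that on each code TAF10KO was above both other groups. Their median log2 difference of TAF10KO from WT was 0.52, and 2 of 12 rose, Flt1 (1.18, edgeR adjusted p = 0.0244) and Pecam1 (0.64, 0.0438), of which Pecam1 is also a platelet protein. The 12 neutrophil markers summed to 499 and 809 CPM in TAF10KO, 322, 541 and 402 CPM in TAF10HET, and 392 and 486 CPM in WT. Their median was 0.70 and 0 passed in edgeR, against 3 with DESeq2. The macrophage markers, 10 of 12 tested, summed to 202 and 119 CPM in TAF10KO, 247, 200.2 and 174.5 CPM in TAF10HET, and 250.4 and 155 CPM in WT, with a median of -0.38, 0 passing in edgeR and 1 with DESeq2. The 12 erythroid markers summed to 9691 and 11530 CPM in TAF10KO, 9195, 17380 and 15460 CPM in TAF10HET, and 10450 and 15390 CPM in WT, with a median of -0.27, 0 passing in edgeR and 4 with DESeq2. Hepatocyte, mesenchymal and stem cell markers, 12 each, had medians of -0.26, 0.42 and 0.05 with 0 passing in edgeR and 3, 0 and 0 with DESeq2. Of 9 mast cell markers 3 were tested, with a median of -0.10 and 0 passing by either tool. With DESeq2 4 endothelial markers passed. Unadjusted p was under 0.05 for 9 endothelial, 8 neutrophil, 5 macrophage, 5 erythroid, 5 hepatocyte, 0 mesenchymal, 3 stem cell and 1 mast cell markers. Of all genes, 17.9% had an unadjusted p under 0.05 between TAF10KO and WT, 0.608% passed in edgeR and 4.41% with DESeq2. Against TAF10HET, which also carried EpoCre, 4 endothelial and 3 neutrophil markers rose in TAF10KO and 1 macrophage marker fell in edgeR. The other marker lists had 0 there, and 1.61% of all genes passed. The medians in that comparison were 0.46 for endothelial, 0.70 for neutrophil and -0.61 for macrophage markers. Between date codes the mesenchymal sum was 368 CPM in TAF10KO, 231 and 229 CPM in TAF10HET and 209 CPM in WT on the second code, and 1722, 2681 and 1504 CPM in TAF10KO, TAF10HET and WT on the first. No marker of these lists was at 0 in every library, and 2 macrophage and 7 mast cell markers were under 1 CPM throughout. The part of these cells in the differences of the 31 genes was not tested.

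**Figure D3:**
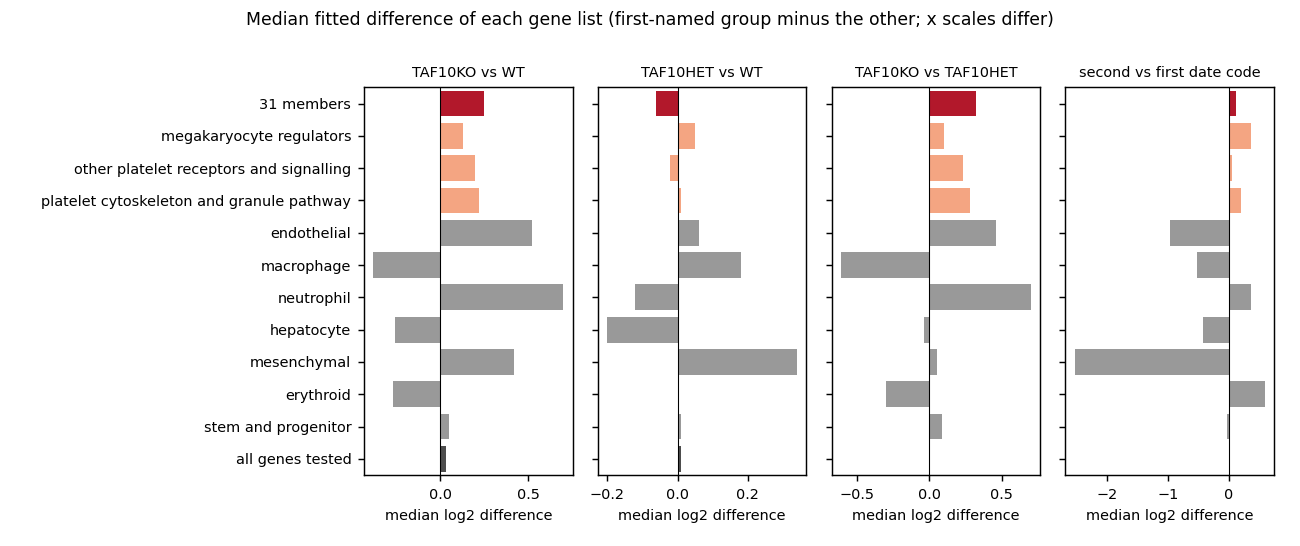
Median fitted log2 difference of each gene list in 4 comparisons, with the first-named group minus the other and a scale of its own in each panel. The red bar is the 31 megakaryocyte and platelet genes, light red bars are the other genes of the pathway, grey bars the markers of other cells, and the lowest bar all genes tested. For TAF10KO against WT the red bar is at 0.25. The neutrophil (0.70), endothelial (0.52) and mesenchymal (0.42) bars are higher. All other bars are lower, among them the erythroid (-0.27) and the macrophage (-0.38) ones.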

How the data were processed

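The submitters' processing notes name mm10, DESeq2 and TopHat2 2.0.8, with no role for any. The deposited files hold whole-number read counts per Ensembl gene, made by the authors from TruSeq version 2 libraries per the labels. How reads were counted, with which annotation and strand setting, was not given in the sources used here. Without strand, reads of a gene and an antisense partner cannot be told apart. Summary lines, left out here, held 6.81% to 10.12% of reads in no gene, 3.98% to 5.94% ambiguous and 14.07% to 22.25% aligned to several places. GENCODE M21 on mm10 gave symbols and positions for 37693 of 39017 identifiers.

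The tests used edgeR 4.0.16 under R 4.3.3 (filterByExpr by genotype, TMM, robust dispersions, two-sided quasi-likelihood F test). All 7 libraries entered, with the date code as a replicate block and genotype as terms. P-values were adjusted by Benjamini-Hochberg over 15800 genes at 0.05. CPM are counts scaled by the TMM-adjusted library total. Within-code values are differences of log2 CPM with a prior count of 2. Medians over lists are descriptions with no test. The procedure was tested on simulated data. The labels do not say what the date code marks. Deviations from the group mean correlated across genes at 0.40 to 0.74 between libraries of different groups on the same code (8 pairs) and at -0.74 to -0.40 on different codes (8 pairs), and groups of 2 mirror each other by construction. Replicate 1 of each group bears the first code, so the code is also the pairing by replicate number. No library copied another in its group (chi-square per degree of freedom of 16.3 to 190). Titles number single livers, but nothing says whether they came from separate litters, so p-values measure the spread between these livers.

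The genes and lists were chosen with earlier results of these data known. Values by library are given for the 2 genes of highest level per kb in each role, for those with the largest difference of TAF10KO from WT and between date codes, for Taf10, for called genes of the pathway lists and for Gata1, Fli1, Nfe2 and Thpo. A further gene that the rule names is not reported here. Other genes with such values were chosen after their values were seen. Alternatives were other scaling factors, filters, DESeq2 1.42.0, no block, fewer groups and each library left out. Sequences are from RefSeq, GRCm38.p6.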

Additional observations from a re-analysis of the deposited data

Results flagged for a closer look

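The difference of TAF10KO from WT was larger on the second date code than on the first by 0.85 log2 units for Pf4, 0.84 for Clec1b, 0.77 for Ppbp and 0.58 for Plek, each past the threshold of the interaction test in edgeR. For Selp the difference pointed opposite ways on the 2 codes, 2.9 log2 units apart, from 6 to 71 reads per library, and this was not called (interaction adjusted p = 0.117). Each TAF10KO or WT value on a code is 1 embryo, and the spread in the test is that between 2 TAF10HET livers.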

How the results depend on the processing

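For TAF10KO against WT, the number of the 31 genes passing, 0 in the reported fit, was 9 with no filter on low counts (1399 of all genes), 3 with DESeq2 (589) and 4 with only the groups compared (553), and 0 to 7 over single libraries left out, where the median ran from 0.028 to 0.387. For TAF10HET against WT it was 1 with no filter, Mmrn1, and 0 in every leave-out, with medians of -0.252 to 0.077. For TAF10KO against TAF10HET it was 16 with no filter (1498 of all genes) and 6 with DESeq2 (690), and 0 to 10 over the leave-outs, with medians of 0.105 to 0.378. Between date codes the number, 6 as reported (41.4% of all genes), was 11 with no filter (26.6%). It was 2 with the code as the only term (35.1%) and 1 with only TAF10KO and WT libraries (27.5%). The last of these was an alternative added after seeing the data, as was leaving out Mmrn1. The number ran from 1 to 12 over the leave-outs (19.3% to 45% of all genes), with medians of -0.025 to 0.22. Without the replicate block 0 genes passed between genotypes, also over all genes, and the median of TAF10KO against WT was 0.26. The difference of TAF10KO from WT changed sign for Pf4 without TAF10KO replicate 2 (-0.185 to 0.605 over the leave-outs) and for Ppbp without TAF10KO replicate 1 or WT replicate 1 (-0.422 to 0.274). It did so without WT replicate 2 or TAF10KO replicate 2 for F2rl2 (-0.184 to 0.287), Plek (-0.1 to 0.345) and Ptgs1 (-0.129 to 0.23). Causes were not tested. In 200 other combinations of a named gene and an alternative the direction and the side of the threshold were kept, and in 15 a gene passed that had not. In 109 combinations the counts stayed within 1.5 times, 0 against 0 included, and the medians within the spread between codes or genotypes. In 20 they moved further, and in 3 a median changed sign. For TAF10KO against WT this spread was 0.277, more than the median of 0.251, so the 0.028 above counted as kept. Groups of 2 livers, and low counts for Selp, limit the precision.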
